A study of Drosophila melanogaster with 3 samples.

Results

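Eip75B (FBgn0000568) is the Drosophila gene for the nuclear receptor E75, and it lies on the minus strand of chromosome arm 3L (dm6, chr3L:17950953-18064696, 113744 bp). It was chosen from the peak lists themselves, with the signal of its start-site peak and the number of its summits known, so its counts, ranks and signals are given as a description with no test. Its members are the listed ChIP-seq regions whose summit lies in the gene body or within 5 kb of it. These are 12 of the 4410 peaks of the thresholded optimal list and 60 of the 30000 regions of the pooled list. In the lists of replicates 1, 2 and 3 they are 66, 61 and 43 of 30000 regions each.

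The data come from whole prepupae of a transgenic Drosophila melanogaster line that carries CG8319 fused at its C terminus to GFP, precipitated with an antibody against GFP. The 3 samples are biological replicates of 1 group, all from that single line, with males and females pooled, no treatment labelled and the age labelled unknown. The sequence that drives the fusion gene is not given in the sources used here, and no untagged animals were analysed here. Chromatin was sheared to 200 to 800 bp and comes from all tissues together, so a peak does not show in which cells the protein was recovered.

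E75 is an early gene of the steroid hormone ecdysone, which sets off the larval and prepupal steps of metamorphosis. Its transcripts start at separate promoters and are spliced to shared exons at the 3′ end, so several of the proteins differ at the N terminus while they share the ligand-binding domain. That domain holds heme and responds to nitric oxide, and E75 represses the nuclear receptor HR3, an activator of ftz-f1 in prepupae.

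The sequences of the 5 strongest peaks and of the peak upstream of the gene are shown because these peaks carry the account that follows. All were taken from the RefSeq genome of the dm6 assembly and are read 5′ to 3′ on the minus strand, which is the direction of Eip75B transcription. Each holds the summit and 50 bp to either side, except that the window at the start site of transcript RC ends at the base before that start, so that it holds no transcribed sequence of RC. Capitals mark, on either strand, the 5 words of 6 bases with the largest difference in share between summits and flanks of the optimal peaks outside the locus. The word TTAAAA stood in 32.7% of those summit windows and 12.6% of the flank windows. AAATAT stood in 31.9% and 13.3%, and AAAATA in 35.8% and 18.0%. ATTTTA stood in 29.0% and 11.3%, and ATTTAA in 28.4% and 11.2%. Adjoining or overlapping words run together.
Peak 12.1 kb upstream of the RC start, chr3L:18011853-18011953: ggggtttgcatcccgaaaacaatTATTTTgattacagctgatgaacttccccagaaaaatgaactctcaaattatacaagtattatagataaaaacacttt
Upstream side of the RC start, chr3L:17999822-17999922: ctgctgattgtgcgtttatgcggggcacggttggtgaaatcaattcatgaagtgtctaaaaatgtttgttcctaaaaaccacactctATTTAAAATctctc
Peak 9.34 kb upstream of the RC start, chr3L:18009112-18009212: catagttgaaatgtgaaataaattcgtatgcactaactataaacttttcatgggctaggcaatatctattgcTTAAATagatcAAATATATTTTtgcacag
Peak 19971 bp upstream of the RC start, chr3L:18019742-18019842: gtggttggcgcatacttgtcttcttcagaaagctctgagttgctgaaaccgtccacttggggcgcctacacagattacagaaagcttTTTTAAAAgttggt
Peak 5.45 kb upstream of the RC start, chr3L:18005220-18005320: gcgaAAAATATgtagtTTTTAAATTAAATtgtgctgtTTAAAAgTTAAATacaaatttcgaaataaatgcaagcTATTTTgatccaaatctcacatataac
Peak 499 bp upstream of the RF start, chr3L:18065145-18065245: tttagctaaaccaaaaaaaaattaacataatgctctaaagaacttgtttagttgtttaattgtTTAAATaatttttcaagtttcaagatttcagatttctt

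The gene has 7 annotated transcripts, each with a start site of its own. In the direction of transcription these are RF, RE, RB, RG, RC, RA and RD, at positions 18064696, 18061453, 18059598, 18026032, 17999821, 17971439 and 17961814. RF spans the whole gene in 8 exons, while RD spans 8457 bp in 4 exons. Coding length is 4236 bp in RF, RE and RB, 4065 bp in RA, 3597 bp in RC, 2973 bp in RG and 2718 bp in RD. The merged exons cover 13451 bp, which is 11.8% of the gene.

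In the pooled list the strongest places lay at the start site of RC and in the 20 kb upstream of it. Of the 12 optimal peaks, 10 lay in introns, the peak at the RC start among them. Of the others, 1 lay in the untranslated part of an exon and 1 upstream of the gene. Since exons cover only 11.8% of the gene, nothing is read from the number in introns. Their signal, the value of the authors' peak caller, ran from 88.1 to 698.5 with a median of 149.8. All 4410 optimal peaks ran from 87.3 to 1792 with a median of 145. The median of the Eip75B peaks was therefore near that of the list, and its strongest peak stood far above it. The scale of the signal differs between lists, so lists are compared below by rank, where rank 1 is the highest signal of a list.

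**Figure D1:**
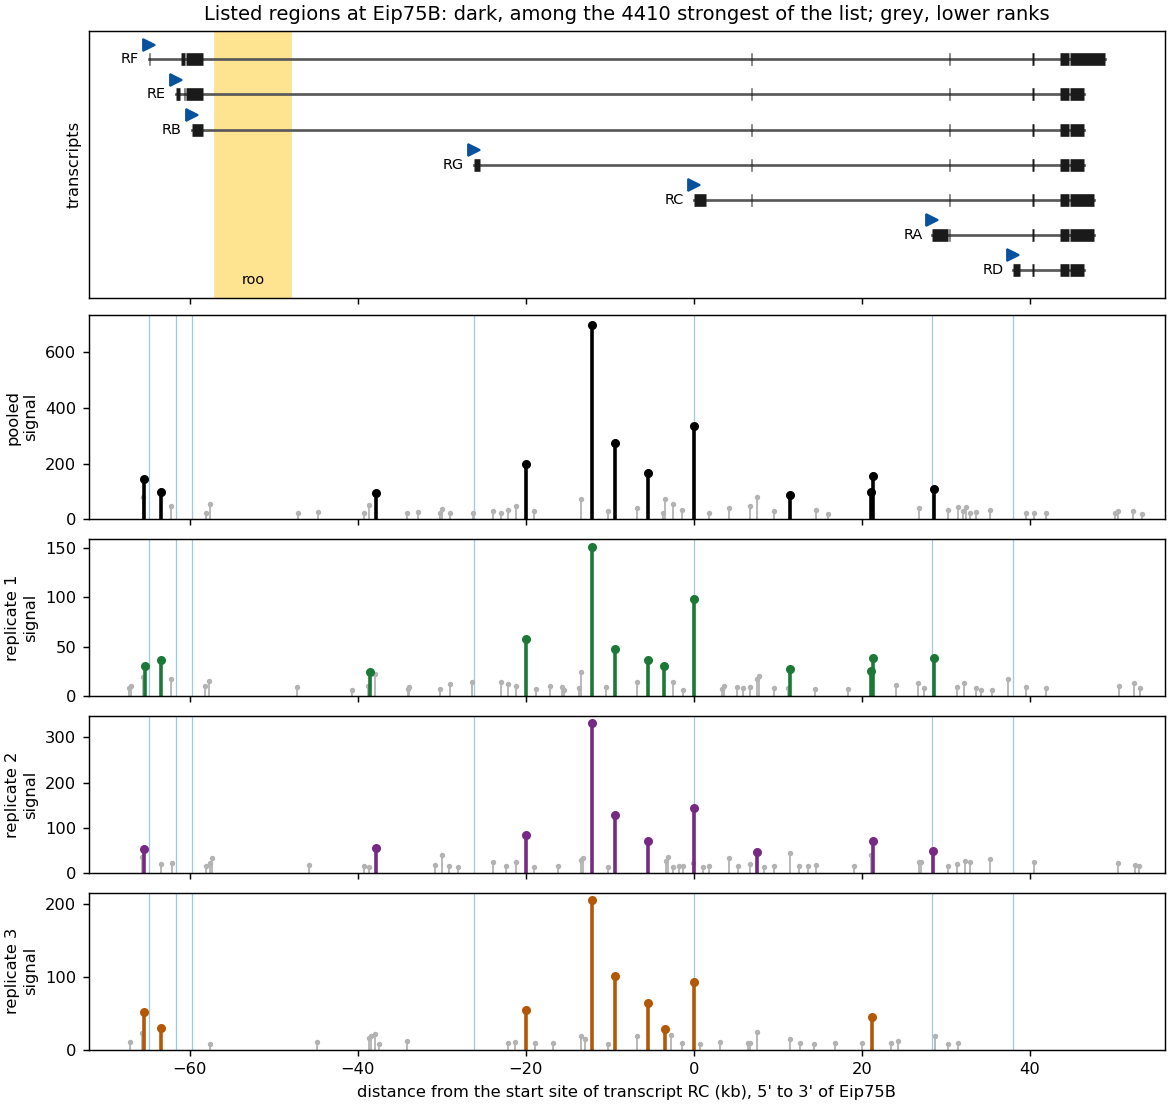
Listed regions at Eip75B along the distance from the RC start site in kb, drawn in the direction of transcription, with transcripts and exons at the top and the deposited signal of the pooled list and of replicates 1, 2 and 3 below. Dark stems are regions among the 4410 strongest of a list, grey stems are lower ranks, thin vertical lines are start sites and the shaded block is a roo transposon, and the tallest stem in all 4 lists lies 12.1 kb upstream of RC.

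The strongest peak lay 12.1 kb upstream of the RC start (chr3L:18011743-18012054, 312 bp). Its signal was 151 in replicate 1, 331 in replicate 2, 206 in replicate 3 and 698.5 in the pooled list. These signals put it at ranks 80, 83 and 72 of the replicates and at rank 79 of the pooled list, so the replicates placed it almost alike. Its summit differed between replicates by an SD of 13.1 bp. The peak lies in the intron that is the third of RF and RE and the first of RB. It also lies in the first intron of RG, which is shorter. No start site of any gene lay nearer to it than that of RC. Among the 371 optimal peaks more than 10000 bp from every start site it was number 2 by signal. It was number 4 among the 894 peaks more than 5000 bp away, and number 30 among the 2698 more than 500 bp away.

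The RC start site carried the second strongest peak, with its pooled summit 2 bp upstream of the start (chr3L:17999618-18000027, 410 bp). Signal there was 98.1, 144 and 93.0 in replicates 1, 2 and 3 and 337 in the pooled list. The corresponding ranks were 298, 616, 515 and 468. The replicate summits lay 44 bp downstream, 39 bp downstream and 22 bp upstream of the start, so all 3 lay within a fragment length of it.

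Further peaks lay in the 20 kb upstream of this start site. The peak 9.34 kb upstream (chr3L:18009103-18009284, 182 bp) had signals of 47.9, 127 and 101.3 in replicates 1, 2 and 3 and of 274 in the pooled list, with ranks of 1396, 793, 430 and 726. Its replicate summits were the closest together of these 5 peaks, with an SD of 7 bp. The peak 19971 bp upstream (chr3L:18019587-18019996) had replicate signals of 58.3, 84.3 and 54.6 and a pooled signal of 199 at rank 1316. It lies 6240 bp downstream of the RG start, which is nearer to it than the RC start. The peak 5.45 kb upstream (chr3L:18005065-18005474) had replicate signals of 36.6, 71.6 and 64.2 and a pooled signal of 166 at rank 1775. Each of these peaks lay among the 4410 strongest regions of every replicate.

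By pooled signal the 5 strongest peaks of Eip75B thus lay within the 20 kb upstream of the RC start, a stretch delimited after their positions were seen. The stretch held 2.5 optimal summits per 10 kb, against 0.675 per 10 kb in the rest of the gene and its 5 kb flanks. The lowest pooled signal in it was 166, and the highest outside it was 154. These contrasts follow in part from where the edges were set. The farthest of the 5 pooled summits lay 19971 bp upstream, just inside the edge. The summits of that peak in replicates 2 and 3 lay 20003 and 20029 bp upstream, just outside it. At the other edge, the summits of the RC start peak in replicates 1 and 2 lay 44 and 39 bp downstream of RC, also just outside the stretch. In replicates 2 and 3 these 5 peaks were also the 5 strongest of the 12. In replicate 1 the peak 5.45 kb upstream, at 36.6, came after the RA exon peak at 39.0 and the peak 21.3 kb downstream of RC at 38.1. A further region 3499 bp upstream of RC was listed below the optimal threshold, with a pooled signal of 73.2 at rank 5455. It was at rank 3020 in replicate 1 and 3841 in replicate 3. Replicate 2 listed overlapping regions there, the one with the nearer summit at rank 8693 and the other at rank 5805.

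Downstream of RC, 4 peaks lay in the 23400 bp interval that is the fourth intron of RF and RE and the second of RB, RG and RC. A pair of them overlapped, 21.3 kb and 21.1 kb downstream of RC (chr3L:17978346-17978755 and chr3L:17978546-17978955). Signal of the former was 38.1, 70.3 and 45.3 in replicates 1, 2 and 3 and 154 in the pooled list, and its ranks of 2100, 2238 and 1920 were close together. The latter had a pooled signal of 97.8 and ranks of 4149 and 5106 in replicates 1 and 2, while replicate 3 listed a single region over both. The pair may therefore count as 1 place, which leaves 11 places at the gene.

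The peak of the RA start site lay 219 bp downstream of it, in the untranslated part of the first exon of RA (chr3L:17971015-17971424). Its signal was 39.0, 49.5 and 19.3 in replicates 1, 2 and 3 and 107.8 in the pooled list. Replicates 1 and 2 placed it at ranks 2012 and 3652, and replicate 3 placed it at 6188, below its 4410 strongest regions. The weakest optimal peak lay 11.5 kb downstream of RC (chr3L:17988162-17988571) with a pooled signal of 88.1 at rank 4363. It was at ranks 3643, 4435 and 8572 of the replicates.

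At the 5′ end, a peak lay upstream of the gene, 499 bp from the RF start (chr3L:18064990-18065399). Signal was 30.7, 52.9 and 52.0 in replicates 1, 2 and 3, at ranks 3011, 3363 and 1555, and 145.3 in the pooled list. Its position is just inside the 500 bp used below to tie a peak to a start site. The first intron of RF held a peak 1416 bp downstream of the RF start (chr3L:18063075-18063484) with signals of 36.1, 19.0 and 30.4 in the replicates and 96.8 in the pooled list. Replicates 1 and 3 ranked it 2315 and 3418, and replicate 2 ranked it 14876, which is the widest disagreement among the 12 peaks. The last peak lay 37.9 kb upstream of RC (chr3L:18037487-18037896, pooled signal 93.9), at ranks 4879, 3255 and 5217. Its pooled summit was 588 bp downstream of the start of lncRNA:CR45922, a non-coding gene nested in the intron, and just past the 3′ end of that gene. The summits of this peak in replicates 1 and 3 lay inside that gene, near its 3′ end.

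Of the 7 start sites, RF, RC and RA had an optimal summit within 500 bp. Over all protein-coding genes 12.7% of start sites had one, which is 2498 of 19607. The other 4 start sites lay farther from an optimal summit, with 1827 bp for RE, 3682 bp for RB, 6240 bp for RG and 9406 bp for RD. A pooled region lay 70 bp upstream of the RG start at rank 23657 and another 545 bp upstream of the RE start at rank 8852. Neither is an optimal peak, and the lists at these ranks mix peaks with background. Among the 22 protein-coding genes with 7 start sites, 14 had at least 1 start site within 500 bp of an optimal summit, and 3, Eip75B included, had at least 3.

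The replicates differed at the RF and RA starts. Among the 4410 strongest regions, the summit nearest to RF was 453, 501 and 534 bp away in replicates 1, 2 and 3, so the 500 bp limit runs through these values. For RA it was 216 and 118 bp away in replicates 1 and 2 and 7175 bp away in replicate 3. RC was within 500 bp in all 3.

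Along the gene, optimal summits were unevenly placed. The 65240 bp intron shared by RF, RE and RB held 6, or 0.920 per 10 kb, and the 23400 bp interval held 4, or 1.71 per 10 kb. The 4 include the RA exon peak and the overlapping pair, and the larger intron includes the 8999 bp roo element described below. The 21468 bp of the interval upstream of the RA start held 3, or 1.40 per 10 kb, with both peaks of the pair counted. The intron and the interval are therefore not ranked by density. Toward the 3′ end, the 9742 bp intron shared by 6 transcripts held 0 optimal summits and 7 pooled regions, and the 3158 bp intron shared by all 7 held 0 and 2. RD starts inside the former. Over the merged exons 1 optimal summit was listed, that of the RA exon peak.

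A roo retrotransposon of 8999 bp is annotated in the large intron (chr3L:18047763-18056761), and no region of any list had its summit there. Reads from repeated elements often cannot be placed uniquely, and whether they could be placed here was not tested.

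All 12 optimal peaks overlapped a listed region of some rank in each replicate. The share of all optimal peaks that did so is not given here, so nothing is read from it. Of the 12 peaks, 8 overlapped one of the 4410 strongest regions in all 3 replicates. That is near the share over all optimal peaks, 66.1% or 2915 of 4410. Agreement is partly built into both, since the optimal list is the top of the pooled list, called from the same 3 alignments. The 8 include the peak 21.1 kb downstream of RC, which in replicate 3 is met only by the region of its overlapping neighbour. The 4 others were the RA exon peak, the peak in the first intron of RF and the peaks 37.9 kb upstream and 11.5 kb downstream of RC, all of pooled signal under 108. As a description of peaks that share the libraries, Spearman's rho of signal over the 12 peaks was 0.776 for replicates 1 and 2. For replicates 1 and 3 it was 0.697, and for 2 and 3 it was 0.830. The single replicate 3 region over the overlapping pair entered for both peaks, here and in the summit distances that follow. Replicate summits lay a median of 15.5 bp from the pooled summit, with medians of 14, 4.5 and 28 bp in replicates 1, 2 and 3.

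**Figure D2:**
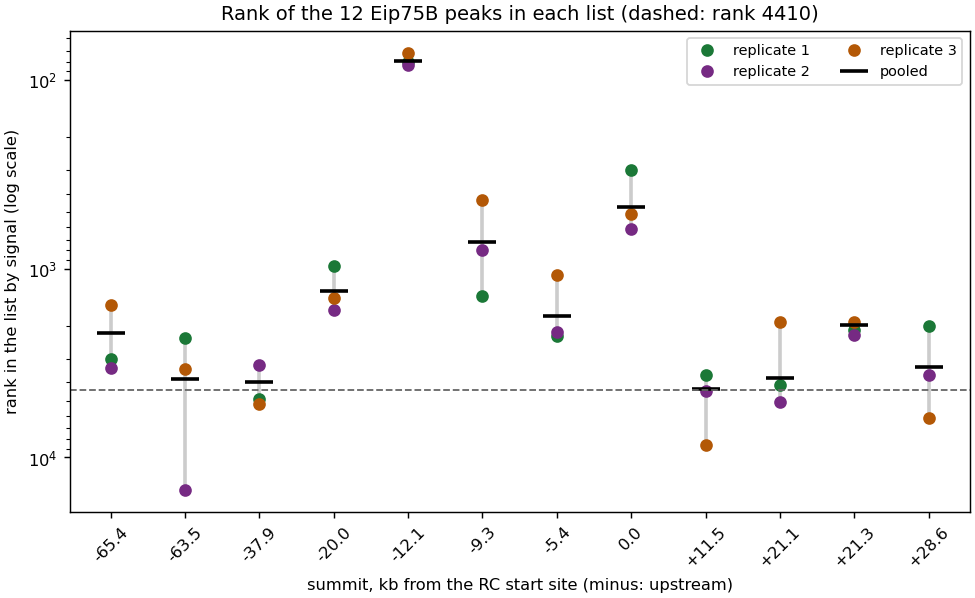
Rank of each of the 12 Eip75B peaks by signal in each list, on a log scale with the highest signal at the top, ordered by distance of the summit from the RC start site in kb. Points are replicates 1, 2 and 3 and bars are the pooled list, and the 3 points of the peak 12.1 kb upstream lie between ranks 72 and 83 while those of the peak 63.5 kb upstream lie between 2315 and 14876.

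Counted within each replicate, 13, 10 and 9 of the 4410 strongest regions had their summit at the locus, 10.7 ± 2.08 (SD, n = 3). In the gene body the counts were 12, 9 and 8, or 1.06, 0.791 and 0.703 per 10 kb. Replicate 1 was highest and replicate 3 lowest, also in the number of regions of any rank, 56.7 ± 12.1 (SD, n = 3). Just below the optimal threshold the pooled list held regions of signal 80.7 and 80.5 at ranks 4875 and 4884. The former, 7493 bp downstream of RC, was at ranks 5576, 4084 and 4643 of the replicates. Outside the window the nearest optimal summits lay 11069 bp beyond the 3′ end of the gene, with a signal of 114, and 13403 bp beyond its 5′ end, with a signal of 180, so a wider flank of 10 kb would add none.

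Eip75B carried 11 optimal summits in its body, and 6 of 13945 protein-coding genes carried more. These were kirre with 19, sbb with 16, CG1677 with 15, and Svil, shn and ush with 12 each. Raf, Tet and rdx also had 11. The median of all protein-coding genes was 0, and 10.9% had any. Length enters this order, since Eip75B is long. Per 10 kb it held 0.967 summits, against 0.329 over the chromosome arms, and stood at place 264 of the 1977 protein-coding genes of 10 kb or longer. Among the 137 protein-coding genes within 1.5 times its length, Eip75B included, the median was 2 summits, 53 had none, 3 had more and 8 were denser.

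The genes most like Eip75B by length and number of optimal summits in the body were Tet, Svil, CG43658, Ptp61F and fz2. Tet, which encodes a dioxygenase of modified bases in DNA and RNA, held 11 summits in 92952 bp, and 11, 10 and 10 top regions in replicates 1, 2 and 3. Its strongest peak had a signal of 679 at rank 82, next to that of Eip75B at rank 79. Svil, a gene of the supervillin family of actin-binding proteins, held 12 summits with a highest signal of 357. CG43658, Ptp61F, a tyrosine phosphatase gene, and fz2, a Wingless receptor gene, held 10 each, with highest signals of 335, 213 and 222.

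**Figure D3:**
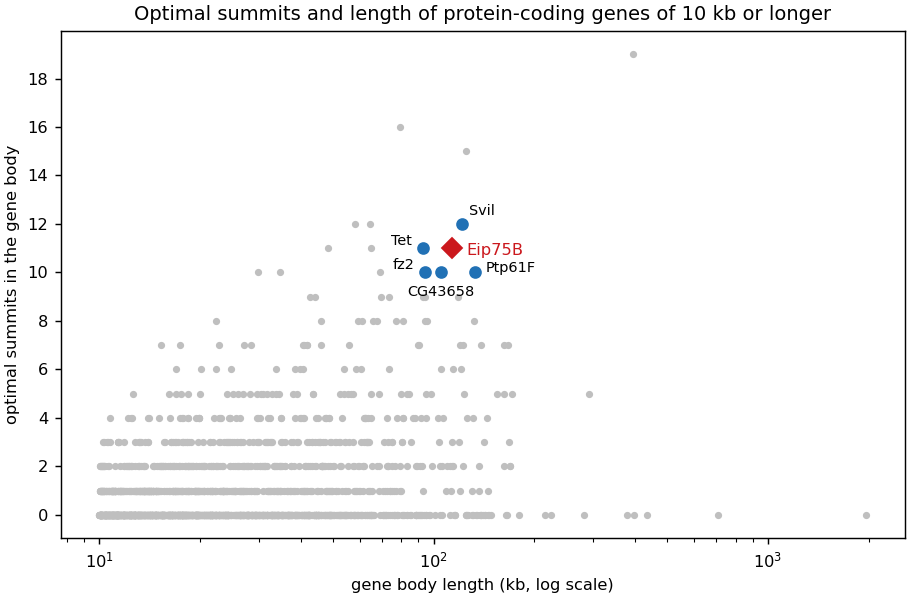
Number of optimal summits in the gene body against gene length in kb on a log scale, for the 1977 protein-coding genes of 10 kb or longer, each a point. Eip75B is the diamond with 11 summits, and the 5 labelled circles are the genes closest to it in number among those within 1.5 times its length, with 10 to 12.

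Other genes inside the window or next to it had few peaks of their own. lncRNA:CR45921, lncRNA:CR45922, CG32192, CG42393, CG44006 and lncRNA:CR45393 had no optimal summit in their bodies. lncRNA:CR43174 had 1, which lies outside the window. The distance from an optimal summit to the start of the nested genes was 588 bp for CR45922, 2625 bp for CG32192, 3090 bp for CR45921 and 5041 bp for CG42393.

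Eip75B was 1 of 7 among 21 nuclear receptor genes with an optimal summit within 500 bp of a start site, where 14.0% of protein-coding genes had one. Its start-site signal of 337 was the highest of the 7, but Eip75B was chosen with that signal known, so nothing is read from this place. Hr96, a receptor of lipid and xenobiotic metabolism, had 307, ERR, the estrogen-related receptor and regulator of glycolysis, 258, and Hnf4, a receptor of lipid catabolism, 190. usp, the partner of the ecdysone receptor, had 169.8, Hr78 133.9 and EcR, the ecdysone receptor, 109. Several receptors without such a summit held strong ones in their bodies. Eip78C, the nearest relative of E75 in the fly, held 4 with a highest signal of 754, and Hr4, a receptor of the prepupal hierarchy, held 8 with a highest signal of 737. Hr3 held 2, the stronger of 367, and ftz-f1 held 3 with a highest signal of 194. For Hr3 the nearest optimal summit lay 556 bp from a start site, just beyond the 500 bp limit. The median number of summits in the body was 1 over the 21 receptors, beside 0 over all protein-coding genes. Of the receptors 11 had any, beside 10.9% of all protein-coding genes. These body counts were not matched for gene length, and the median protein-coding gene is 2166 bp long.

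In the ecdysone response, 10 of 26 genes, the chosen Eip75B among them, had an optimal summit within 500 bp of a start site. The share of all protein-coding genes was 14.0%. Higher start-site signals than that of Eip75B were those of Sox14, a transcription factor gene, with 798 at rank 55, and E23, an ABC transporter gene, with 497 at rank 164. Ldh, the lactate dehydrogenase gene, had 292, Eip63F-1, a calcium-binding protein gene, 200.3, and Eip93F, a determinant of adult metamorphosis, 131. Eip74EF, an ETS factor gene and like Eip75B an early puff gene, had 104 at its start and 6 summits in its body with a highest signal of 260. ImpE3 had 103.9, and usp and EcR were named above. br, the Broad complex, held no optimal summit. The median number of summits in the body was 1, and 15 of 26 genes had any. Over all protein-coding genes the median was 0 and 10.9% had any, again with no matching for gene length.

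Of 11 partners and targets of E75, 1 (9.09%) had an optimal summit within 500 bp of a start site, which is near the 14.0% of all protein-coding genes. It was vri, a bZIP gene of the circadian clock, with a signal of 154, which also held 8 summits with a highest signal of 402. Smr, a corepressor gene, held 6 in its body with a highest signal of 354, while Nos, the nitric oxide synthase gene, and Clk held none. Of 11 genes of ecdysteroid synthesis and its control, woc, a zinc finger gene, had a start-site signal of 229 and was also the 1 of 11 with such a summit. The medians over both lists were 0 summits in the body. Of the 11 genes of each list 4 and 2 had any, beside 10.9% of all protein-coding genes, not matched for length. Together the 4 lists held 58 genes, of which 16 had an optimal summit within 500 bp of a start site, and these are to be read against the same 14.0%. Genes with more start sites have more chances to be counted. Eip75B, which has 7, is among the 16 and was chosen with its start-site peak known.

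The sequence at the Eip75B summits was rich in A and T. Within 50 bp of the summit A or T made up 65.8% ± 9.96 (SD, 12 peaks), against 56.9% in flank windows equally wide whose centres lay 300 bp away and 59.8% in the gene body. The mean rise was 8.95 ± 12.0 percentage points (SD, 12 peaks), beside 11.5 ± 12.2 over all 4410 optimal peaks. In 8 of 12 peaks the summit was richer than its flanks, against 3630 of 4410 in all. The rise was 25.7 points at the peak upstream of RF and 21.3 points at the RC start. The RC value is for the window centred on the summit, with 72.3% A or T. The shifted RC window whose sequence is shown above held 61.4%. The strongest peak, 12.1 kb upstream of RC, rose by 5.45 points. The peak 19971 bp upstream went the other way, with 54.5% at the summit and 66.3% beside it. For the locus regions among the 4410 strongest of replicates 1, 2 and 3 the mean rise was 4.49, 7.97 and 10.3 points, 7.58 ± 2.92 (SD, n = 3).

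**Figure D4:**
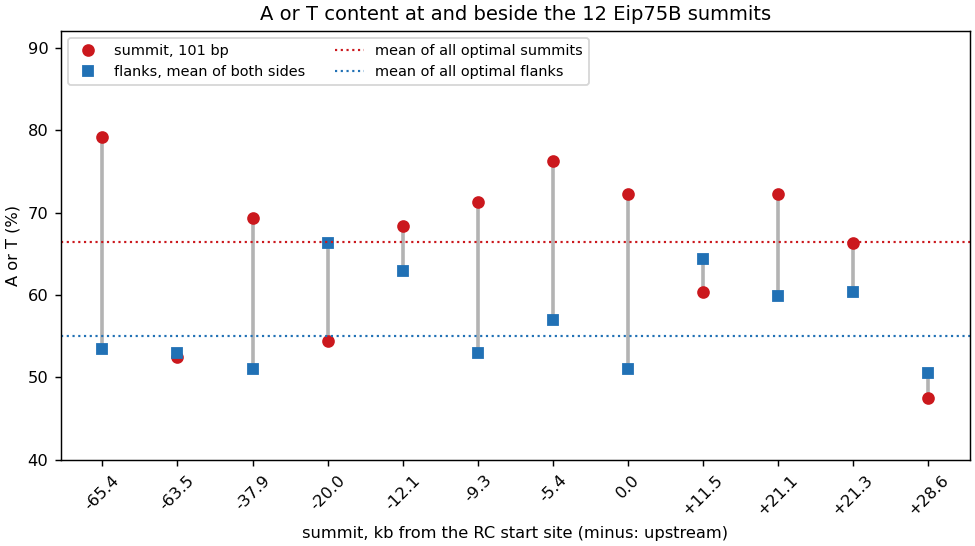
A or T content in percent within 50 bp of the summit and in the flanks of each of the 12 Eip75B peaks, ordered by distance of the summit from the RC start site in kb. Circles are summits, squares are the mean of both flanks and dotted lines are the means over all 4410 optimal peaks, 66.5% at summits and 55.0% in flanks. The summit lies above its flanks in 8 of the 12 peaks and farthest below them at the peak 19971 bp upstream, with 54.5% against 66.3%.

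At least 1 of the 5 words shown in capitals stood in 10 of 12 summit windows and 10 of 24 flank windows of Eip75B, against 70.9% and 39.6% for the 4398 other optimal peaks. ATTTAA stood in 6 summit windows and 0 flank windows, and AAAATA in 6 and 6. The words overlap one another and are rich in A and T themselves. The strongest peak holds a single match, TATTTT, which is AAAATA on the other strand, and the peak 5.45 kb upstream holds 4 of the 5 words.

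Of 8 motifs searched on both strands, AGGTCA, the core binding motif of nuclear receptors, stood in 2 of 12 summit windows, those of the overlapping peak 21.1 kb downstream of RC and of the peak in the first intron of RF. It stood in 0 of 24 flank windows of Eip75B, and in 2.77% of other summit windows and 1.97% of other flank windows. With 12 windows and 8 motifs searched, nothing is read from the 2 matches. TAGGTCA, the extended motif bound by E75 and HR3, was in no Eip75B window and in 0.591% of other summits. GAGAG, of the GAGA factor, was in 2 of 12 summits and 3 of 24 flanks, against 9.35% and 17.0%, and the peaks are those 12.1 kb upstream of RC and at the RC start. CGATA, of BEAF-32, was in 0 of 12 summits and 4 of 24 flanks, against 12.7% and 11.1%. TATCGATA, the DNA replication-related element, GGTCACACT, of M1BP, CAGGTA, of Zelda, and CACGTG, the E-box, were in none of the 12 summits. They were in 0.932%, 0.477%, 1.93% and 0.682% of the others. Matches are letters in these windows and do not show which protein binds there.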

How the data were processed

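ChIP-seq peak lists of 3 replicates in 1 group were read, in the dm6 build named by the labels. The deposited signal is the authors' peak caller value, at least 0 and with no common scale between lists, and the deposited summit offset (another column, in bp) gave the summit. Per the deposited text notes, replicate lists were called per alignment with a control, the pooled list from the 3 alignments together, and the optimal list by the irreproducible discovery rate. It equals the top 4410 of the pooled list. Which aligner, caller and threshold were used is not given in the sources used here. Depth is unknown, so no interval is given. The dm3 lists were not used.

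Genes came from Ensembl BDGP6 (release 115) and sequence from the RefSeq genome, whose arm lengths were checked against the annotation. The members, the 4 gene lists and the stretches named were chosen with earlier results of these data known, and no test was made. Eip55E and ImpL3 were read as Cth and Ldh. Other named genes are neighbours and nested genes, list members with an optimal summit within 500 bp of a start site, and the 5 genes within 1.5 times the length of Eip75B closest in summit number. Genes with more summits than Eip75B, ties, and list members with body summits only or none were named after their values were seen. Shared peaks overlap by 1 bp or more. Python 3.11.15, pandas 2.3.3, numpy 2.4.6 and scipy 1.17.1 were used, and counting was tested on simulated data. Alternatives changed windows, flanks, overlaps, list lengths and the list used.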

Additional observations from a re-analysis of the deposited data

How the results depend on the processing

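Of 42 alternatives, 32 kept the value within 1.5 times the count or within the spread between replicates or peaks, and 10 did not. With the 2205 strongest optimal peaks 7 summits lay at the locus in place of 12, with 0.5275 per 10 kb in place of 0.967. With 2205 top regions per replicate, 4 peaks in place of 8 were found in all replicates. With 200 bp in place of 500 bp, 1 start site in place of 3 and 9 list genes in place of 16 had an optimal summit. The top regions of replicate 3 gave 1 start site, 0.703 summits per 10 kb and place 20 among genes in place of 7, those of replicate 2 gave place 13, and the order by density gave place 264. The cause of these shifts was not tested beyond the stricter settings, which hold fewer peaks or shorter windows by construction. Without 1 replicate in turn, 8 to 9 peaks were found in the others, and the median summit distance was 10.5 to 22 bp. Merging overlapping peaks, an alternative chosen after seeing the data, left 11. No paired analysis was possible because there is 1 group. Depth is unknown, and no untagged animals were analysed here.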
